A study of Mus musculus with 6 samples.

Results

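The genes described here are 8 sensors of double-stranded RNA and other foreign nucleic acid, with their adaptor and editor: Ifih1, Ddx58, Dhx58, Mavs, Eif2ak2, Tlr3, Adar and Cgas. They were chosen by gene symbol, and each of the 8 has a row among the 23197 genes of the count table. The question was whether genes that detect transfected RNA differ between cells labelled as given siRNA against Arid3a and cells labelled as a negative control. None of the 8 passed the test across all genes. Cgas had the highest log2 fold change of the 8, with 15.9 ± 0.825 CPM (reads scaled to a common library size) in the controls against 20.2 ± 0.667 CPM in libraries labelled siArid3a (SD, n = 3 each). Dhx58 had the lowest, with 17.5 ± 4.12 and 12.5 ± 2.80 CPM. Eif2ak2 was level, with 200.6 ± 8.04 and 200.9 ± 0.714 CPM.

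Cells recognise double-stranded RNA in the cytosol through the RIG-I-like receptors, helicases that bind the RNA and signal through the mitochondrial adaptor MAVS to kinases and transcription factors that switch on type I interferon. Endosomal double-stranded RNA is read by Toll-like receptor 3, and the kinase PKR answers the same ligand by phosphorylating the translation factor eIF2 alpha. ADAR edits adenosines in the cell's own duplexes so that they are less readily detected, and cGAS is the matching sensor of cytosolic DNA. Genes of many of these proteins are themselves switched on by interferon, and synthetic duplex RNA such as siRNA can be a ligand for this group.

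The libraries came from mouse primary vascular smooth muscle cells, bought from a supplier and grown in culture, and polyA RNA was sequenced. Of the 6 libraries, 3 are labelled Negative Control and 3 are labelled si-Arid3a#1, si-Arid3a#2 and si-Arid3a#3. The protocol gives transfection of siRNA and 24 h of incubation in the same words for both groups. The labels do not say what the negative control received, and no group labelled as untransfected was analysed here. Nor do they say whether the numbers #1 to #3 are different siRNAs or repeats, whether the cultures were separate, or whether these cells had angiotensin II, which the growth protocol describes for a disease model. Each p-value thus rests on the spread among these 6 libraries, which may be technical. In a bulk sample, fewer cells of a type and less RNA per cell cannot be told apart.

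Libraries held 17029735 to 22799935 reads in genes. Arid3a itself did not separate the groups, at 16.8 to 22.6 CPM in the controls and at 16.6 to 21.5 CPM in libraries labelled siArid3a (log2 fold change −0.03, SE 0.13, edgeR adjusted p = 0.943). The sensors are therefore compared between labels, and no loss of Arid3a transcript was measured. Of 9 smooth muscle markers, 8 passed the filter on low counts, with Acta2 at 540.7 ± 53.7 CPM in the controls, while Myh11 had 30 reads over all 6 libraries. Among those that passed, Tagln and Des were low, with 158 and 81 reads over the 6 libraries. Only 32.1% of the exonic bases of Tagln lie outside other genes. Markers of other cell types were present in part. All 5 fibroblast markers passed the filter, with Col1a1 at 1003 ± 131 CPM in the controls. Of 8 leukocyte markers 4 passed, Cd14 with 5557 reads over the 6 libraries, Cd68 with 676, Lyz2 with 538 and Csf1r with 243, while Adgre1, Fcgr1 and Ptprc had 5, 13 and 20 reads. Of 5 epithelial markers Krt19 (4600 reads) and Cdh1 (552) passed, while Epcam had 1 read. Of 6 endothelial markers Tek (143 reads) and Kdr (70) passed, while Tie1 and Emcn had 2 and 4 reads.

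Promoters are shown first for 4 of the genes, since the interferon regulatory factors that these sensors activate bind paired GAAA repeats. The windows run from 250 bases before to 50 after the RefSeq transcript start (GRCm38.p6), written in the direction of transcription, and capitals mark a match to GAAANNGAAA on either strand. Ifih1 lies on the minus strand with its window at chr2:62646206-62646505, Ddx58 on the minus strand at chr4:40239776-40240075, Eif2ak2 on the minus strand at chr17:78882523-78882822 and Cgas on the minus strand at chr9:78443188-78443487.
Ifih1: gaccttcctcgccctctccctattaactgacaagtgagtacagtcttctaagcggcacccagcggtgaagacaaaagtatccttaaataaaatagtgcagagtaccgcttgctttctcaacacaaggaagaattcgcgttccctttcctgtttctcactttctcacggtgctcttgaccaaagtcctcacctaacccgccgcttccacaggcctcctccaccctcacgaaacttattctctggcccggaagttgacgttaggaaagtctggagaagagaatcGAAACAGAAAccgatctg
Ddx58: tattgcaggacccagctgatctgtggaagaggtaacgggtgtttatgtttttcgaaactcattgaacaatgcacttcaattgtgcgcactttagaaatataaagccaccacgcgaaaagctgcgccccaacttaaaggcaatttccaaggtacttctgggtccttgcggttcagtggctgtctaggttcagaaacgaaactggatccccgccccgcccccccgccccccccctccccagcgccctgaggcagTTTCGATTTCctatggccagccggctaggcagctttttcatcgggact
Eif2ak2: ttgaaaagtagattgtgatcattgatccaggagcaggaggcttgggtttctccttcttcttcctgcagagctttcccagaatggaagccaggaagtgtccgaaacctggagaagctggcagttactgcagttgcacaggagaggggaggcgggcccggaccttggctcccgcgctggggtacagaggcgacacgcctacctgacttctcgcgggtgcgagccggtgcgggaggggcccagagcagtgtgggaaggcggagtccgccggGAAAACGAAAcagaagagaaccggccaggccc
Cgas: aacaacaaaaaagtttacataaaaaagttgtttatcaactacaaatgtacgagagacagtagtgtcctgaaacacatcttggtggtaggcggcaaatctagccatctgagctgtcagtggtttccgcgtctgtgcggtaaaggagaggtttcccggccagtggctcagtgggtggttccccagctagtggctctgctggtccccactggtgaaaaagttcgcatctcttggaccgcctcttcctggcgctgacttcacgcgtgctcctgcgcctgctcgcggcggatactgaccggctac

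The first 3 of these windows each held 1 match, GAAACAGAAA at bases 33 to 42 after the start in Ifih1, TTTCGATTTC at bases 3 to 12 in Ddx58 and GAAAACGAAA at bases 19 to 28 in Eif2ak2, counting the first transcribed base as 1. The Cgas window held none, nor did those of Mavs and Tlr3 or the 3 start sites of Adar. RefSeq windows were matched for 7 of the 8 genes, all but Dhx58, and the pair was thus found in 3 of 7. Over all promoters it was found in 1131 of 32851 windows (3.44%), or in 1079 of 27025 genes (3.99%). These are letter matches in short windows and not measured binding.

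Levels between genes were compared as CPM per kilobase of annotated exon, averaged over the 6 libraries. Eif2ak2, which encodes PKR, was the most abundant at 39.3 ± 0.999 CPM per kilobase (SD, n = 6), and its range over libraries lay above that of every other member. Ddx58 followed at 23.5 ± 1.72 and Mavs at 20.8 ± 2.06 CPM per kilobase, and their ranges overlapped. Adar stood between the high and the low members at 8.87 ± 0.858 CPM per kilobase, overlapping with neither neighbour in the order. Ifih1 at 4.72 ± 0.510, Dhx58 at 4.59 ± 1.27, Cgas at 4.38 ± 0.593 and Tlr3 at 3.71 ± 0.465 CPM per kilobase formed the lower end, where each overlapped with the next. The length-scaled level of Ddx58 was thus above that of its relatives Ifih1 and Dhx58 in all 6 libraries, at 20.7 to 25.8 against 3.75 to 5.07 and 2.95 to 6.43 CPM per kilobase. The counts may hold intronic reads, which scaling by exonic length does not correct for. Only 59.4% of the exonic bases of Adar and 64.7% of those of Dhx58 lie outside other genes, against 89.1% to 100% for the rest. Where reads of overlapped bases were lost, the levels of Adar and Dhx58 are understated.

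**Figure D1:**
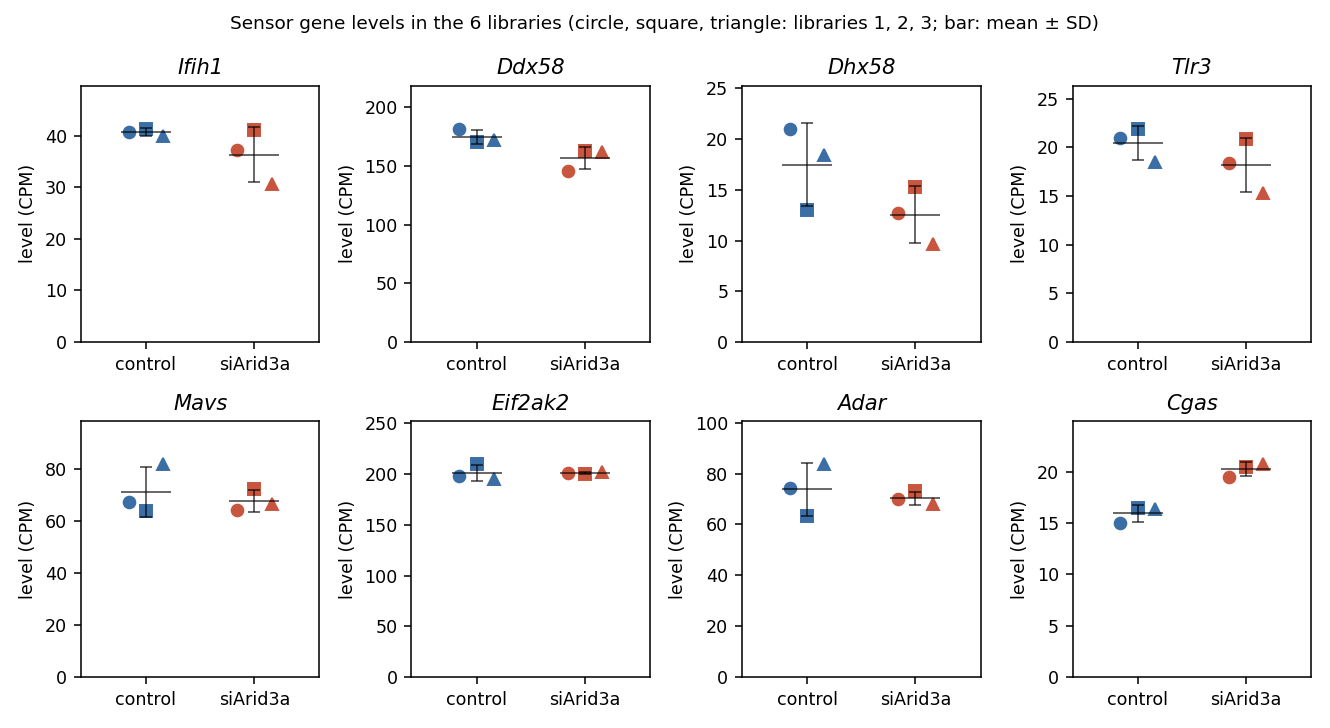
Level of each sensor gene in CPM (y axis, from 0) in the 3 control and the 3 siArid3a libraries; circles, squares and triangles are libraries 1, 2 and 3, and bars give the mean ± SD. Cgas and Ddx58 are the genes whose groups do not overlap, Cgas at 15.0 to 16.5 against 19.5 to 20.8 CPM and Ddx58 at 170.6 to 182.0 against 146.2 to 163.0 CPM.

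Values of the 3 libraries of a group are given below in the order of library 1, 2 and 3. Among the RIG-I-like receptors, all 3 had lower means in the libraries labelled siArid3a, and none passed the test. Ddx58 (ENSMUSG00000040296, mm10 chromosome 4, 40203773 to 40239828, minus strand) encodes RIG-I, the receptor of short duplexes with a triphosphate or diphosphate end. The controls had 182.0, 170.6 and 172.2 CPM, and the siArid3a libraries had 146.2, 163.0 and 161.9 CPM. Every siArid3a library lay below every control, and library 1 was the lowest. Ddx58 had a log2 fold change of −0.16 (SE 0.08; adjusted p = 0.347 with edgeR), or 0.897 times the control level (95% interval 0.802 to 1.00). A two-sided exact permutation test of Ddx58 gave p = 0.1, the smallest that 3 against 3 libraries allow.

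Ifih1 (ENSMUSG00000026896, chromosome 2, 62595798 to 62646255, minus strand) encodes MDA5, which assembles along long duplexes. Its controls were nearly equal at 40.8, 41.4 and 40.0 CPM, while the siArid3a libraries had 37.3, 41.1 and 30.6 CPM. Library 2 lay within the control range and library 3 was the lowest, so the groups overlapped. The fold change of Ifih1 was −0.17 on the log2 scale (SE 0.11; adjusted p = 0.478 with edgeR), or 0.891 times the control level (95% interval 0.762 to 1.04).

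Dhx58 (ENSMUSG00000017830, chromosome 11, 100694884 to 100704271, minus strand) encodes LGP2, a receptor that lacks the signalling domain of the other RIG-I-like receptors and modulates them. The controls held 404, 286 and 318 reads of it, and the siArid3a libraries 291, 261 and 184. As levels these were 21.03, 13.0 and 18.4 CPM against 12.7, 15.3 and 9.67 CPM. Control library 2 lay within the siArid3a range, and siArid3a library 3 was the lowest of the 6. Dhx58 had the lowest log2 fold change of the 8, −0.48 (SE 0.18; adjusted p = 0.240 with edgeR), or 0.719 times the control level (95% interval 0.548 to 0.942). Without a filter on low counts the edgeR adjusted p was 0.0370, which passes, as it did for 1.89% of the genes then tested. With a library left out the log2 fold change of Dhx58 ran from −0.65, without control library 2, to −0.32, without control library 1. The opposite-strand gene Dhx58os covers 35.3% of the exonic bases of Dhx58, and the strand setting of the counting is not given in the sources used here, so reads of that stretch may be missing from the count or belong to either gene.

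Tlr3 (ENSMUSG00000031639, chromosome 8, 45395665 to 45411080, minus strand), the endosomal receptor, had 20.9, 21.9 and 18.5 CPM in the controls. Its levels in the siArid3a libraries were 18.4, 20.9 and 15.3 CPM. The groups overlapped, with library 3 the lowest in each group. Tlr3 had a log2 fold change of −0.17 (SE 0.13; adjusted p = 0.554 with edgeR), and the 95% interval ran from 0.734 to 1.07 times the control level. The opposite-strand transcript gene Gm45542 covers 10.9% of its exonic bases.

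Mavs (ENSMUSG00000037523, chromosome 2, 131234063 to 131248025, plus strand), the adaptor through which RIG-I and MDA5 signal, had 67.6, 64.1 and 82.1 CPM in the controls. In the siArid3a libraries it had 64.3, 72.5 and 66.6 CPM, all within the control range. Mavs had a log2 fold change of −0.07 (SE 0.10; adjusted p = 0.779 with edgeR), and its 95% interval was 0.823 to 1.10 times the control level. Its sign turned without control library 3 (0.04).

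Eif2ak2 (ENSMUSG00000024079, chromosome 17, 78852564 to 78882573, minus strand) encodes PKR, the kinase that halts translation on double-stranded RNA. The controls had 197.7, 209.7 and 194.4 CPM, and the siArid3a libraries had 201.1, 200.1 and 201.5 CPM. The siArid3a libraries lay together inside the control range. Eif2ak2 had a log2 fold change of 0.00182 (SE 0.07; adjusted p = 0.994 with edgeR), and the 95% interval ran from 0.90 to 1.11 times the control level. The paired GAAA repeat was printed above for Eif2ak2, Ddx58 and Ifih1, and none of these genes passed the test. A link between the repeat and the levels was not tested.

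Adar (ENSMUSG00000027951, chromosome 3, 89715022 to 89753446, plus strand), the adenosine-to-inosine editor of duplex RNA, had 74.2, 63.2 and 83.8 CPM in the controls. The siArid3a libraries had 69.9, 73.0 and 67.9 CPM, all within the control range. Adar had a log2 fold change of −0.07 (SE 0.10; adjusted p = 0.791 with edgeR), and its 95% interval was 0.825 to 1.10 times the control level. Its sign turned without control library 3 (0.03). The gene Chrnb2 on the other strand covers 40.6% of the exonic bases of Adar, and it had 9 to 34 reads per library. Counts per gene do not separate the interferon-inducible long isoform of Adar from the constitutive short isoform.

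Cgas (ENSMUSG00000032344, chromosome 9, 78430526 to 78443237, minus strand) encodes the enzyme that makes cyclic GMP-AMP on cytosolic DNA. The controls held 288, 364 and 282 reads of it, and the siArid3a libraries 447, 350 and 395. As levels these were 15.0, 16.5 and 16.3 CPM against 19.5, 20.5 and 20.8 CPM. Every siArid3a library lay above every control, and the spread within each group was small. Cgas had the highest log2 fold change of the 8, 0.34 (SE 0.11; adjusted p = 0.174 with edgeR), or 1.27 times the control level (95% interval 1.08 to 1.49). The two-sided exact permutation test of Cgas gave p = 0.1, again the smallest possible. With each of the 6 libraries left out in turn the log2 fold change of Cgas stayed between 0.30 and 0.37, and its adjusted p over the alternatives run was 0.0731 to 0.577, so it was past the threshold under none of them. A pseudogene on the other strand, Gm8093, covers 6.79% of its exonic bases.

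**Figure D2:**
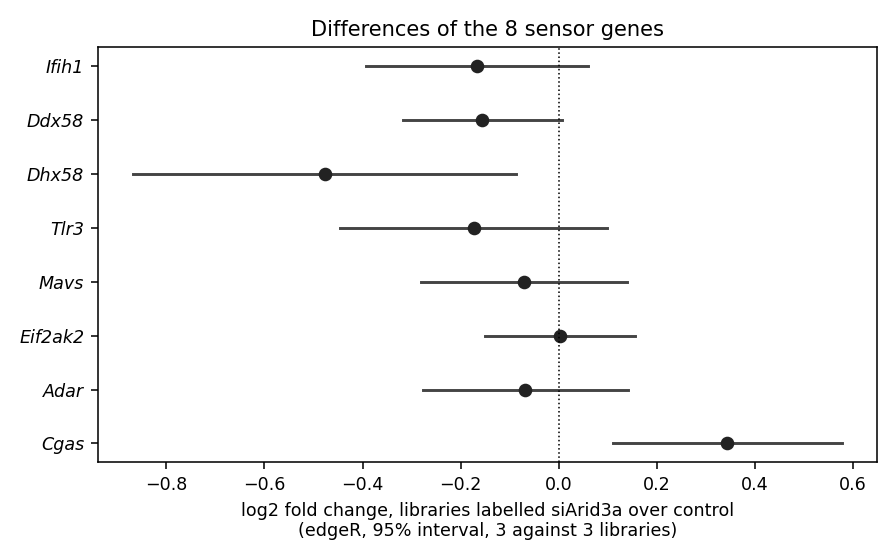
Log2 fold change of each sensor gene (x axis; points) in the libraries labelled siArid3a over control, with the 95% interval of the edgeR fit (lines). The intervals of Dhx58 (−0.87 to −0.09) and Cgas (0.11 to 0.58) lie away from 0 before adjustment over all genes, and the other 6 span it.

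Of the 8 genes, 0 passed edgeR's quasi-likelihood test at an adjusted p under 0.05, where 0.0% of the 13234 tested genes did. DESeq2 also called 0 of the 8, against 2.06% of the genes to which it gave an adjusted p, with adjusted p = 0.148 for Cgas and 0.203 for Dhx58. At an unadjusted edgeR p under 0.05 there were 2 of the 8, where the share over all tested genes was 14.9%. They were Dhx58, on the lower side with 7.57% of all tested genes, and Cgas, on the higher side with 7.36%. The groups did not overlap in 2 of the 8, against 20.0% of all tested genes. They were Ddx58, lower like 10.4% of all tested genes, and Cgas, higher like 9.66%. With 8 genes, neither count is a result about the sensors. Below 0 lay 6 of the 8, against 51.1% of all tested genes, and the median log2 fold change was −0.11, against −0.01 over all tested genes. All 8 genes passed the filter on low counts.

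The members varied between libraries in different ways. In siArid3a library 3 the log2 level deviated from the control mean by −0.41 for Ifih1, −0.41 for Tlr3 and −0.82 for Dhx58, while Ddx58 deviated by −0.11 and Eif2ak2 by 0.01. In siArid3a library 2 Ifih1 and Tlr3 deviated by 0.01 and 0.03, so the lower mean of these genes rested on siArid3a libraries 1 and 3. Without siArid3a library 3 the log2 fold change was −0.06 for Ifih1 and −0.06 for Tlr3. Cgas deviated by 0.29, 0.36 and 0.38 in siArid3a libraries 1, 2 and 3. Mavs and Adar varied more among the controls than among the siArid3a libraries, with control library 3 the highest for both, at deviations of 0.21 and 0.19.

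**Figure D3:**
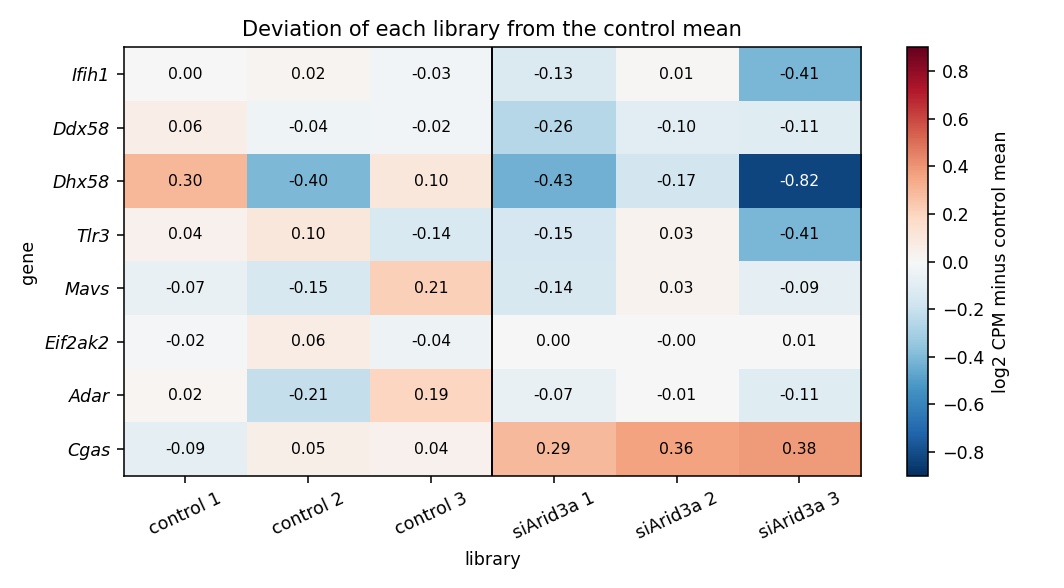
Deviation of each library (columns) from the control mean for each sensor gene (rows), as log2 CPM; blue is below and red above the control mean. Cgas is at 0.29 to 0.38 in the 3 siArid3a libraries, and Dhx58 reaches −0.82 in siArid3a library 3 but is also at −0.40 in control library 2.

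Ratios within a library do not depend on how libraries are scaled, so each gene's reads were also set against those of Mavs, and these values are a description with no test. The log2 ratio of Cgas to Mavs was −2.17, −1.96 and −2.33 in the controls and −1.72, −1.82 and −1.68 with siArid3a, without overlap. For the other 6 genes the groups overlapped. The share of all tested genes without overlap in this ratio was not counted. The ratio uses the same Cgas reads as the CPM, so it is no separate evidence. For Dhx58 the log2 ratio to Mavs was −2.05 ± 0.324 in the controls and −2.46 ± 0.286 with siArid3a (SD, n = 3). For Ddx58 it was 1.30 ± 0.203 and 1.21 ± 0.0614, so the separation of Ddx58 seen in CPM was not seen against Mavs. Its ratios were 1.43, 1.41 and 1.07 in the controls and 1.19, 1.17 and 1.28 with siArid3a. The overlap thus rested on control library 3, where Mavs was highest.

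The genes with the most similar profiles were found for the 3 RIG-I-like receptors, by the root mean square difference of log2 CPM over the 6 libraries after centring each gene on its mean, among 10045 genes with a mean of at least 5 CPM. For Dhx58 these were the oligoadenylate synthetase gene Oas3, with a difference of 0.0620, and the calpain protease gene Capn5, with 0.0703, where the median over the candidates was 0.385. Oas3 had 34.6, 23.5 and 34.3 CPM in the controls and 22.7, 28.6 and 17.1 CPM with siArid3a. It was picked for its likeness to Dhx58 over these libraries, so low values in the same libraries follow from the choice. For Ifih1 they were the PDZ scaffold gene Slc9a3r2 (0.0269) and another oligoadenylate synthetase gene, Oas1a (0.0293; median 0.197). Oas1a had 105.5, 104.4 and 100.5 CPM in the controls and 94.8, 101.2 and 74.4 CPM with siArid3a, and its reads may be split among close copies of the family. For Ddx58 they were Hadh, a gene of mitochondrial fatty acid oxidation (0.0221), and the docking protein gene Dok1 (0.0309; median 0.159). None of these 6 genes passed the test, with edgeR adjusted p from 0.173 for Capn5 to 0.462 for Slc9a3r2.

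Genes that carry the signal onward from the RIG-I-like receptors were listed by role. Of 24 listed and tested, 0 passed, 15 lay below 0 and 9 above, and the list's median was −0.04 on the log2 scale. The most abundant were Pcbp2, which directs degradation of MAVS, at 448.4 ± 29.6 and 493.6 ± 31.6 CPM, and Zc3hav1, the zinc-finger antiviral protein gene, at 254.5 ± 18.5 and 294.6 ± 8.45 CPM (SD, n = 3). Zc3hav1 did not overlap between the groups (log2 fold change 0.21, SE 0.08, edgeR adjusted p = 0.226), and 29.7% of the exonic bases of Pcbp2 lie outside other genes. The remaining genes named from the lists were picked after their values were seen. They were picked for their role next to the sensors or because their groups did not overlap. They therefore do not stand for their lists. In this list 5 genes were lower and 1 higher without overlap, as were 10.4% and 9.66% of all tested genes. All of these are named here, while others, such as Traf3 at −0.01 on the log2 scale, are not. The ubiquitin ligase gene Trim25, an activator of RIG-I, had a log2 fold change of −0.47 (SE 0.18, edgeR adjusted p = 0.241). Of the kinases downstream of MAVS, Tbk1 had 89.2 ± 2.08 and 82.6 ± 2.83 CPM, and Ikbke had 42.2 ± 4.66 and 29.2 ± 5.98 CPM (SD, n = 3). Of the factors they phosphorylate, the constitutive Irf3 was at −0.01 (SE 0.12) on the log2 scale, which turned to 0.13 without control library 3, and the interferon-inducible Irf7 was at −0.59 (SE 0.13, adjusted p = 0.1003 with edgeR). DESeq2 called Ikbke and Irf7 (adjusted p = 0.0263 and 0.00647), and 68.2% of the exonic bases of Ikbke lie outside other genes. Ddx60, a helicase gene described as a helper of RIG-I, was at −0.36 (SE 0.12) on the log2 scale.

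Around the endosomal receptor, 9 of 13 listed genes were tested, 0 passed, and 7 lay below 0, and the list's median was −0.20 on the log2 scale. Hsp90b1, the chaperone of Toll-like receptors, had 647.3 ± 33.3 and 706.7 ± 51.3 CPM, and Lgmn, an endosomal protease gene, had 129.3 ± 6.87 and 113.2 ± 8.73 CPM (SD, n = 3). Of the exonic bases of Hsp90b1, 39.2% lie outside other genes. Cd14, a co-receptor gene, was at −0.45 (SE 0.11, edgeR adjusted p = 0.114) on the log2 scale, and DESeq2 called it (adjusted p = 0.0299). Ticam1, the adaptor through which Tlr3 signals, had 14.0 ± 1.08 and 10.6 ± 1.68 CPM without overlap between the groups (log2 fold change −0.40, SE 0.14, edgeR adjusted p = 0.209). Unc93b1, which carries these receptors to the endosome, was at −0.20 (SE 0.14) on the log2 scale. In this list 3 genes were lower and 0 higher without overlap, as were 10.4% and 9.66% of all tested genes. The lower ones were Cd14, Ticam1 and Cnpy3, with Cnpy3 at −0.20 on the log2 scale. The other nucleic acid receptors of the endosome were scarce, with 212 reads over the 6 libraries for Tlr7, 16 for Tlr9 and 11 for Tlr13, against 2276 for Tlr3.

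Around PKR, all 10 listed genes of the eIF2 alpha kinase arm were tested and 0 passed, with 7 above 0, and the list's median was 0.07 on the log2 scale. Atf4, the transcription factor translated when eIF2 alpha is phosphorylated, had 614.2 ± 23.3 and 660.7 ± 23.7 CPM, and Eif2s1, which encodes eIF2 alpha itself, had 236.8 ± 31.9 and 273.9 ± 30.5 CPM (SD, n = 3). Prkra, the activator protein of PKR, had a log2 fold change of −0.19 (SE 0.12). Ppp1r15a, whose product brings a phosphatase to eIF2 alpha, had 95.9 ± 12.8 and 131.4 ± 11.2 CPM without overlap (log2 fold change 0.45, SE 0.10, adjusted p = 0.1003 with edgeR), and DESeq2 called it (adjusted p = 0.00729). In this list 2 genes were higher and 1 lower without overlap, as were 9.66% and 10.4% of all tested genes. The other higher gene was Ppp1r15b at 0.15 on the log2 scale. The lower one was Eif2ak3, a gene of another eIF2 alpha kinase, at −0.28 (SE 0.10).

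Around Adar, 13 genes of duplex RNA binding and editing were tested and 0 passed, with 9 above 0, and the list's median was 0.05 on the log2 scale. The helicase gene Dhx9 had 339.7 ± 5.29 and 356.4 ± 20.3 CPM, and Zfr, a zinc-finger RNA-binding protein gene, had 229.0 ± 14.2 and 240.6 ± 10.3 CPM (SD, n = 3). Adarb1, the second active editor, had 26.2 ± 3.71 and 24.5 ± 1.93 CPM. Zbp1, a sensor of left-handed duplexes that shares the Z-nucleic-acid-binding domain with the long Adar isoform, had 95.2 ± 11.8 and 71.8 ± 13.1 CPM without overlap (log2 fold change −0.41, SE 0.12, edgeR adjusted p = 0.156). In this list 3 genes were higher and 1 lower without overlap, as were 9.66% and 10.4% of all tested genes. The higher ones were Strbp, Dicer1 and Stau1, at 0.28, 0.13 and 0.05 on the log2 scale.

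Around Cgas, 17 of 18 listed genes of cytosolic DNA sensing were tested and 0 passed, with 11 below 0, and the list's median was −0.07 on the log2 scale, so Cgas lay above the highest of them (0.16). Samhd1, which destroys deoxynucleotides, had 148.3 ± 7.13 and 153.1 ± 5.64 CPM, and Banf1, which coats cytosolic DNA, had 133.7 ± 9.92 and 136.4 ± 4.71 CPM (SD, n = 3). Other genes leave 71.4% of the exonic bases of Banf1 uncovered. Sting1, the receptor of the cyclic GMP-AMP that cGAS makes, had 24.9 ± 1.40 and 22.7 ± 3.90 CPM (log2 fold change −0.14, SE 0.13). Ifi207, of the family of interferon-inducible DNA-binding proteins, was at −0.26 (SE 0.11) on the log2 scale, and members of that family are close copies whose reads may be split.

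Of the interferon loop, Ifnb1, the cytokine gene that these sensors switch on, had 22 reads over the 6 libraries and was too low to be tested. Of the 7 tested genes 0 passed, with 5 below 0, and the list's median was −0.07 on the log2 scale. Jak1 had 306.4 ± 10.2 and 311.5 ± 8.94 CPM, and the receptor gene Ifnar1 had 120.5 ± 10.5 and 115.1 ± 1.89 CPM (SD, n = 3). Stat2, a factor that carries the signal to the nucleus, had 112.8 ± 9.92 and 90.7 ± 11.9 CPM without overlap (log2 fold change −0.32, SE 0.10, edgeR adjusted p = 0.173). Irf9, its partner in the interferon response, had 101.8 ± 2.47 and 100.3 ± 2.74 CPM. In this list 2 genes were lower and 0 higher without overlap, as were 10.4% and 9.66% of all tested genes. The lower ones were Stat2 and Ifnar2, with Ifnar2 at −0.25 on the log2 scale. Only 26.4% of the exonic bases of Ifnar2 lie outside other genes.

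**Figure D4:**
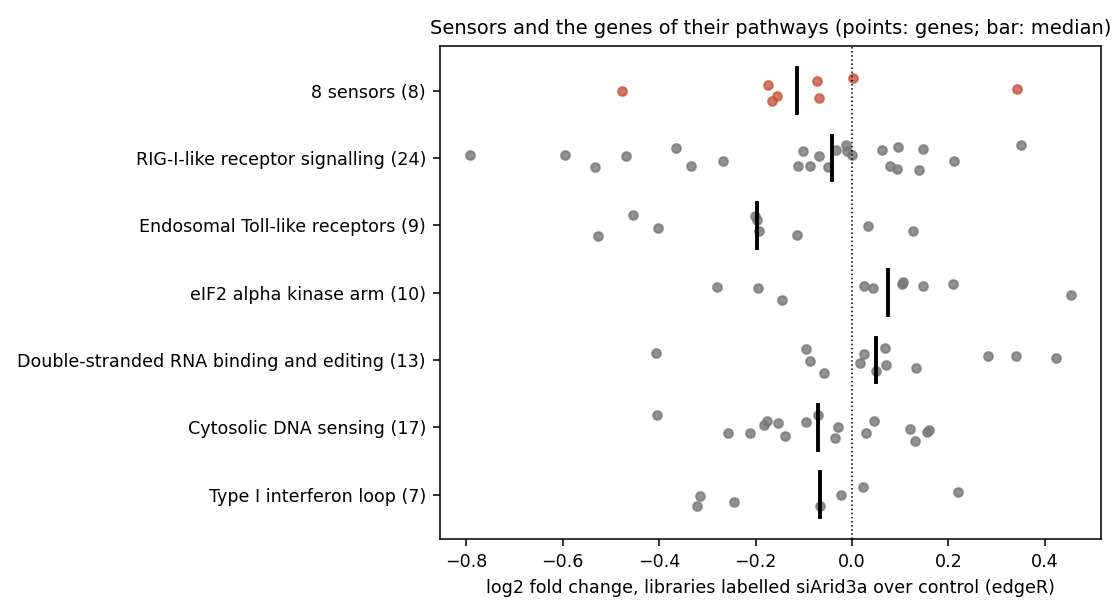
Log2 fold change (x axis) of the 8 sensor genes and of the tested genes of 6 lists of their pathways, with the number of genes in brackets; each point is a gene and the bar is the median. The median is −0.11 for the sensors, −0.20 for the endosomal Toll-like receptor list and 0.07 for the eIF2 alpha kinase arm, and no gene shown passed the edgeR test.

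Some markers of other cell types also had lower means in the libraries labelled siArid3a, and others had higher means. Of 8 leukocyte markers 4 were tested, and all 4 lay below 0. The summed level of the list was 60.9 to 73.2 CPM in the controls and 41.9 to 57.3 CPM with siArid3a, most of it from Cd14 at 54.5 ± 4.26 and 39.8 ± 6.43 CPM (DESeq2 adjusted p = 0.0299), and Cd68 had 5.87 ± 0.327 and 5.56 ± 0.992 CPM. The 5 epithelial markers summed to 48.0 to 53.7 and 35.0 to 39.7 CPM, most of it Krt19 (DESeq2 adjusted p = 0.0398). The 9 smooth muscle markers summed to 2302 to 2464 and 2368 to 2825 CPM, the 5 fibroblast markers to 1558 to 1876 and 1380 to 1761 CPM, and the 6 endothelial markers to 1.68 to 3.13 and 2.11 to 2.84 CPM. Of the fibroblast markers DESeq2 called Dcn, at 518.8 ± 74.7 and 371.0 ± 55.2 CPM (adjusted p = 0.0103). In that list 4 markers lay below 0, and Col1a1 lay above it at 0.08 on the log2 scale. Of the tested endothelial markers, Kdr (70 reads) was at 1.74 (SE 0.61, edgeR adjusted p = 0.203) on the log2 scale. Tek (143 reads) was at −0.65 (SE 0.34, edgeR adjusted p = 0.389). With edgeR none of the markers was called, and Cd14, Krt19 and Dcn each had an adjusted p of 0.114. The part of cell composition in the values of the sensors was not tested.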

How the data were processed

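Read counts of polyA RNA in 6 libraries were analysed, 3 per group. The authors' deposited table holds raw counts. The submitters' processing notes name STAR 2.7.3a, featureCounts and mm10, while which annotation, strand setting and read filter they used is not given in the sources. The deposited length equals the gene span, introns included, in all 23197 rows, so counts may hold intronic reads and lose reads where genes overlap. Exonic lengths and overlaps came from GENCODE M21 (GRCm38, the assembly of mm10), which holds 23134 of the identifiers.

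Genes were kept by filterByExpr (13234), scaled by TMM and tested with edgeR 4.0.16 in R 4.3.3 (robust quasi-likelihood fit, group as the only term, Benjamini-Hochberg over all tested genes, threshold 0.05). A standard error is the size of the log2 fold change divided by the root of the F statistic. Log2 CPM used a prior count of 0.5. DESeq2 1.42.0 and limma 3.58.1 (voom) were alternatives, and all 3 were tested on simulated data. Pairs of libraries within a group differed by 5.72 to 20.2 chi-square units per degree of freedom, more than sampling noise. Depth limits the precision most for Dhx58, Cgas and Tlr3, with 184 to 484 reads per library.

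The members, lists and tests were chosen with earlier results of these data known. Named genes are the 8 members, Arid3a, the 2 most abundant tested genes of each pathway list where 0 were called, the 2 nearest profiles per RIG-I-like receptor, and those said to be chosen after their values were seen. The ratios to Mavs were added after seeing the data.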

Additional observations from a re-analysis of the deposited data

How the results depend on the processing

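Under every alternative but 1 none of the 8 sensors was called, and the exception was 1 gene, Dhx58, without a filter on low counts. Of all genes edgeR called 0, with 1976 at an unadjusted p under 0.05, against 0 by limma-voom, 218 by DESeq2, 439 without a filter and 337 with each library's trend with GC content and length removed, and 0 to 135 with a library left out (135 without control library 2, 94 without control library 3 and 37 without siArid3a library 2). Among the single-gene values of 46 genes, 688 of 736 kept their direction and their side of the threshold, 27 became called and 21 changed sign. The genes that changed sign had main values from −0.14 (Sting1, SE 0.13) to 0.03 (Banf1, SE 0.08) on the log2 scale. With the GC and length trend removed they were Mavs (0.0098), Eif2ak2 (−0.022), Adar (0.014), Arid3a (0.057), Irf3 (0.085) and Irf9 (0.027). Eif2ak2 was also at −0.012 with upper quartile scaling, −0.013 with library size only and −0.00087 without a filter, and Irf3 at 0.00277 with limma-voom. With a library left out, values ran from −0.14 to 0.042 for Mavs, −0.020 to 0.040 for Eif2ak2, −0.16 to 0.033 for Adar and −0.13 to 0.084 for Arid3a. They ran from −0.087 to 0.13 for Irf3, −0.010 to 0.096 for Banf1, −0.19 to 0.015 for Adarb1 and −0.22 to 0.00225 for Sting1. The cause was not tested.

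The replicate numbers were not used to pair the libraries in the main fit. Same-numbered libraries correlated at 0.02, −0.16 and −0.07 in their deviations from the group means. None of the controls correlated best with its own number. With 3 libraries per group these values cannot decide whether same-numbered libraries were prepared together. With the replicate block 0 genes and 0 of the 8 sensors were called, and Cgas was at 0.35 (adjusted p = 0.390 with edgeR) and Dhx58 at −0.47 (adjusted p = 0.474 with edgeR) on the log2 scale.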
